A study of Mus musculus with 20 samples.

Results

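This account concerns 10 genes of the machinery that exports collagen from the endoplasmic reticulum (ER): Sec23a, Sec23b, Sec24a, Sec24b, Sec24c, Sec24d, Sec13, Sec31a, Mia3 and Creb3l1. They were chosen by name, for what their products do, but with earlier results of these data known. They come from the 55414 genes of a count table, and all 10 were among the 15624 genes with enough counts to test. The RNA came from cultured mouse cardiac fibroblasts, 4 cultures in each of 5 groups. All cultures held cells from Hyal2fl/fl mice at passage 2, in which exon 2 of Hyal2 (a hyaluronan-degrading enzyme) can be removed by Cre recombinase; the genotype label reads Wild Type C57BL/6J. After 24 h of serum starvation every culture received an adenovirus for 5 h, followed by 48 h in fresh medium with a factor at 20 ng/mL. The GFP group received the GFP virus, the Cre group the Cre virus and the Hyal2 group a virus that overexpresses Hyal2, and these 3 groups are called cultures without TGFB. GFP_TGFB and Cre_TGFB received the GFP or Cre virus and TGFB (transforming growth factor beta). The labels do not settle whether the cultures without TGFB were given bFGF (basic fibroblast growth factor) in its place, so each TGFB comparison may be one of TGFB against bFGF. No group went without virus, and no age is given.

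Secretory proteins leave the ER in vesicles shaped by the COPII coat. The small GTPase Sar1 recruits an inner layer of Sec23 and Sec24, in which Sec24 binds the cargo and Sec23 stimulates the GTPase, and Sec13 and Sec31 then form an outer cage. Procollagen is too long for an ordinary vesicle and needs the transmembrane receptor Mia3 (also called TANGO1), which binds the collagen chaperone Hsp47 inside the ER and the coat outside it. Creb3l1 (also called OASIS) is a transcription factor held in the ER membrane, released by proteolysis, that acts on collagen and secretory genes. Fibroblasts are the main collagen-producing cells of the heart, and TGFB is the classic signal that raises their matrix output.

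The promoters of 9 of the 10 genes were present in a RefSeq table of 300-base windows (250 bases before the transcription start and 50 after it, build GRCm38.p6), as 11 windows, since Sec23b and Sec31a each had 2. They were searched on both strands for TGACGTG, a core of the elements used by ER-stress factors of the Creb3 and Atf6 kind. The search also covered its shorter end part ACGTG and the palindrome TGACGTCA of cyclic-AMP-type elements. TGACGTG was present in 2.01% of all 32851 promoter windows and in those of Sec23a, Sec24d and Mia3. ACGTG, which every TGACGTG contains, was present in 19.6% of all windows and in those of 8 of the 9 genes, all but Sec23b. TGACGTCA was present in 1.79% of all windows and in none of the 11. The stretches that hold TGACGTG are shown because the 3 genes that share these letters did not share a response to TGFB. Each is 120 bases, 5′ to 3′ on the gene's strand, with TGACGTG in capitals.
Mia3 (chr1:183369566-183369685, minus strand, positions -120 to -1 from the start): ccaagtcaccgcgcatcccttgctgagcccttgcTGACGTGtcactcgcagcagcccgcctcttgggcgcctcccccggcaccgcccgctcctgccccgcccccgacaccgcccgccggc
Sec24d (chr3:123267376-123267495, plus strand, positions -120 to -1): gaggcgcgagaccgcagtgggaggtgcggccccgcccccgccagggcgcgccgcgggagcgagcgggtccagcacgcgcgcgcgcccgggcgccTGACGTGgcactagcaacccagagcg
Sec23a (chr12:59012004-59012123, minus strand, positions -106 to 14): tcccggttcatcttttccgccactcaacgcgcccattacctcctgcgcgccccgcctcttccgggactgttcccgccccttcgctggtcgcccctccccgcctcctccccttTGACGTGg
The motif begins 86 bases before the start in Mia3, 26 bases before it in Sec24d and at transcribed base 7 in Sec23a. A match describes the letters only, and binding was not measured here.

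Library totals ranged from 38.6 to 104.8 M counts, so that 3 counts, taken as the floor, equal 0.0286 to 0.0777 CPM. The lowest count of any of the 10 genes in any library was 1165 (Sec24a). The Hyal2 gene itself averaged 41.2 ± 3.46 CPM under the GFP virus (SD, n = 4), 10.4 ± 2.90 under Cre and 934 ± 466 under the Hyal2 virus. With TGFB it averaged 36.8 ± 3.90 CPM in GFP_TGFB and 7.42 ± 1.56 in Cre_TGFB, so it followed the labels, although gene counts do not show exons. All 10 cardiac fibroblast markers were expressed, with a summed level of 25987 to 41362 CPM, most of it from Col1a1, Col1a2 and Vim. Of these 10 markers, 7 were called lower and 2 higher in each of the TGFB comparisons (median log2 fold change -1.32 under the GFP virus and -1.08 under the Cre virus). The 6 mural cell markers summed to 504 to 788 CPM, and the cardiomyocyte and mesothelial lists to at most 5.58 CPM. Most of the mural sum came from Pdgfrb (406 to 612 CPM). Notch3 and Cspg4 reached 193 and 69.8 CPM, and Rgs5, Kcnj8 and Abcc9 at most 3.47, 0.533 and 0.459. The 10 leukocyte markers summed to 185 to 428 CPM in GFP and 110 to 271 in GFP_TGFB, and the 8 endothelial markers to 31.9 to 36.9 and 11.2 to 17.2. Among the leukocyte markers Lyz2 ran from 82.9 to 332 CPM over all libraries, and the next highest, Csf1r, reached 26.9. In Cre and Cre_TGFB the leukocyte sums were 157 to 412 and 104 to 263 CPM, and the endothelial sums 31.7 to 38.1 and 11.4 to 18.8. The endothelial sums were thus lower with TGFB without overlap and the leukocyte sums with overlap, most of the fibroblast markers were lower too, and their part in the results was not tested. In bulk RNA, fewer cells of a type and less RNA per cell cannot be told apart.

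Levels are in CPM, which divides the counts by the library total after TMM adjustment and expresses them on 1 scale for all libraries. Levels of different genes were compared only per kilobase of annotated exon, over the exons of all transcripts. In the GFP cultures Creb3l1 (58.3 ± 9.89 CPM per kb; SD, n = 4), Sec31a (54.7 ± 1.03), Sec13 (53.9 ± 9.20) and Mia3 (48.8 ± 4.11) were highest, and neighbours in that order overlapped. Sec24d followed at 40.7 ± 0.31, Sec23a at 35.3 ± 3.87, Sec24c at 20.9 ± 2.02, Sec24b at 14.5 ± 0.40, Sec23b at 9.78 ± 1.74 and Sec24a at 3.18 ± 0.40 CPM per kb. From Mia3 down, no 2 neighbours in the order overlapped over the 4 cultures. The 10 genes together took 0.169% to 0.211% of the counts of a library.

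The first comparison asked how these genes differed between cultures with and without TGFB under the control virus. A gene was called at an adjusted p under 0.05 over all 15624 genes (edgeR's quasi-likelihood test with Benjamini-Hochberg adjustment). In GFP_TGFB against GFP, 7 of the 10 genes were called higher and 0 lower, where 26.6% of all genes tested were called higher and 28.6% lower. Sec23a, Sec23b, Sec24a, Sec24b, Sec13, Sec31a and Creb3l1 rose, by 1.26 to 1.47 times. Sec24c, Sec24d and Mia3 were not called. The median log2 fold change of the 10 genes was 0.43, against -0.02 over all genes tested. With library totals in place of TMM, edgeR called 20.1% of all genes higher and 35.3% lower. The same scaling left 6 of the 10 genes called higher, those above without Creb3l1, and 0 lower. The 4 GFP_TGFB libraries all lay above the 4 GFP libraries for the 7 genes called, where 24.6% of all genes did so.

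**Figure D1:**
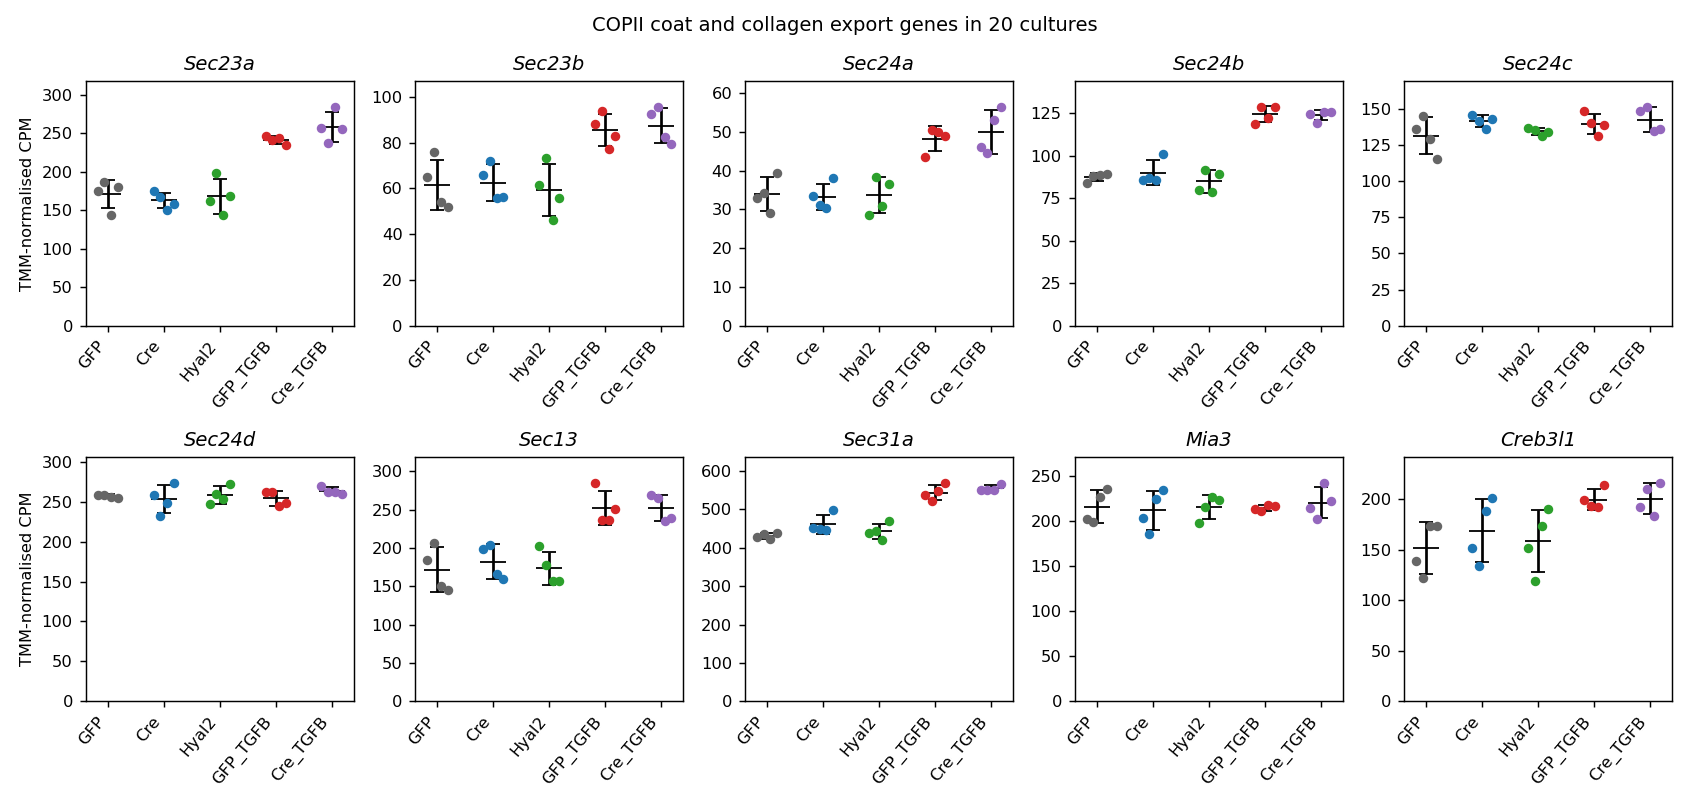
TMM-normalised CPM (y axis, from 0) of each of the 10 genes in the 5 groups (x axis); each point is 1 culture, drawn in replicate order 1 to 4 from left to right, and bars are the mean ± SD of 4. Sec23a, Sec23b, Sec24a, Sec24b, Sec13 and Sec31a lie higher in both TGFB groups than in their controls, while Sec24c, Sec24d and Mia3 overlap.

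Sec23a (ENSMUSG00000020986), the more abundant of the Sec23 genes, is the one whose loss impairs collagen secretion and skull formation in people and fish. It lay at 174, 186, 144 and 179 CPM in GFP replicates 1 to 4 and at 247, 240, 243 and 235 CPM in GFP_TGFB. The GFP_TGFB cultures were all higher than the GFP cultures. The log2 fold change was 0.50 ± 0.09 (SE; adjusted p = 1.14e-04), positive in 4 of 4 isolates. In the annotation used, 8.90% of the exon length of Sec23a overlaps the gene Gm17529, so part of its reads could be shared. Sec23b (ENSMUSG00000027429), its close relative, lay at 64.8, 75.7, 54.0 and 52.0 CPM in GFP and at 88.2, 93.6, 77.3 and 83.1 in GFP_TGFB. The lowest GFP_TGFB culture was above the highest GFP culture, but only just. Its log2 fold change was 0.47 ± 0.13 (adjusted p = 0.00506).

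The 4 Sec24 genes encode alternative cargo-binding subunits and form a pair of subfamilies, Sec24a with Sec24b and Sec24c with Sec24d. Sec24a (ENSMUSG00000036391) lay at 33.04, 34.3, 29.1 and 39.5 CPM in GFP and at 43.6, 50.6, 49.97 and 48.9 in GFP_TGFB, a log2 fold change of 0.51 ± 0.11 (adjusted p = 5.81e-04). Sec24b (ENSMUSG00000001052) lay at 83.7, 87.8, 88.6 and 89.1 CPM in GFP and at 119, 128, 122 and 128 in GFP_TGFB. Neither gene overlapped between the groups, and Sec24b had the smallest adjusted p of the 10 genes (1.47e-06), with a log2 fold change of 0.51 ± 0.06. Sec24d (ENSMUSG00000039234), the isoform tied to collagen export through inherited bone fragility and fish cartilage mutants, lay at 259, 259, 256 and 255 CPM in GFP and at 262, 262, 244 and 249 in GFP_TGFB. The groups overlapped, and the log2 fold change was -0.02 with a 95% interval of -0.13 to 0.09. With TMM scaling the interval thus reaches no further than 0.917 to 1.07 times. That bound depends on the scaling: with library totals the median of all genes was -0.13 in place of -0.02. Sec24c (ENSMUSG00000039367) lay at 136, 145, 129 and 115 CPM in GFP and at 148, 140, 131 and 139 in GFP_TGFB, again overlapping, with a log2 fold change of 0.09 (95% interval -0.05 to 0.22, adjusted p = 0.274). A further 3.40% of the exon length of Sec24c overlaps 6230400D17Rik.

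Both outer-cage genes among the 10 rose. Sec31b, a relative of Sec31a outside the 10, was scarce, at 1.15 CPM in GFP and 0.869 in GFP_TGFB. It was not called (log2 -0.40, adjusted p = 0.296). Sec13 (ENSMUSG00000030298), which also serves in the nuclear pore, lay at 185, 207, 150 and 145 CPM in GFP and at 285, 237, 237 and 251 in GFP_TGFB. Its log2 fold change of 0.56 ± 0.12 was the largest of the 10 (adjusted p = 4.21e-04), and no GFP culture reached the lowest GFP_TGFB culture. Sec31a (ENSMUSG00000035325) lay at 428, 437, 422 and 439 CPM in GFP and at 537, 522, 548 and 569 in GFP_TGFB. This was the smallest change among the genes called (log2 0.33 ± 0.05, adjusted p = 1.53e-05), from tight groups that did not overlap.

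Mia3 (ENSMUSG00000056050), the procollagen receptor, lay at 203, 199, 227 and 236 CPM in GFP and at 213, 212, 219 and 217 in GFP_TGFB. The GFP_TGFB cultures sat inside the range of the GFP cultures, and the log2 fold change was -0.01 (95% interval -0.17 to 0.15, adjusted p = 0.936). Creb3l1 (ENSMUSG00000027230) lay at 139, 122, 173 and 173 CPM in GFP and at 199, 193, 192 and 214 in GFP_TGFB. All GFP_TGFB cultures were higher, the female ones by the wider margin, and the log2 fold change was 0.39 ± 0.14 (adjusted p = 0.0241). The call for Creb3l1 was lost without replicate 1 (0.36, adjusted p = 0.116), without the filter on low counts (0.37, adjusted p = 0.0514) and with library totals in place of TMM (0.29, adjusted p = 0.0666).

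The second comparison asked the same under the Cre virus, in other libraries of the same 4 isolates. Both comparisons came from 1 fit, so the second is not an independent repeat. In Cre_TGFB against Cre, 6 of the 10 genes were called higher and 0 lower, where 27.5% of all genes tested were called higher and 29% lower. The same 6 coat genes rose as in the GFP cultures, and for each of them the 4 Cre_TGFB libraries lay above the 4 Cre libraries, which held for 25% of all genes. Sec23a lay at 174, 167, 151 and 158 CPM in Cre and at 256, 237, 284 and 255 in Cre_TGFB, the largest change of the 10 (log2 0.67 ± 0.09, adjusted p = 4.40e-06). The others changed by log2 0.59 (Sec24a), 0.48 (Sec23b), 0.47 (Sec13), 0.46 (Sec24b) and 0.27 (Sec31a), with adjusted p-values from 5.27e-06 to 0.00425. The remaining coat and receptor genes were again not called, with 95% intervals of -0.13 to 0.14 for Sec24c, -0.05 to 0.17 for Sec24d and -0.11 to 0.22 for Mia3.

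Creb3l1 lay at 151, 134, 188 and 201 CPM in Cre and at 192, 210, 184 and 216 in Cre_TGFB. The groups overlapped, and the log2 fold change of 0.25 (95% interval -0.05 to 0.54) was not called (adjusted p = 0.140). With the isolates kept as a replicate block it was called (0.27 ± 0.10, adjusted p = 0.0208), where 31% of all genes were called higher. In the replicates taken 1 by 1 it differed by log2 0.35, 0.65, -0.04 and 0.10, so it was higher in 3 of 4. The difference between the TGFB effects under the Cre and GFP viruses was tested as an interaction, and 0 of the 10 genes were called, as 0% of all genes were. None of the 10 had an unadjusted p under 0.05 in that test by edgeR, DESeq2 or limma-voom, beside 2.37% to 2.73% of all genes. The interaction ranged from -0.14 (Creb3l1, 95% interval -0.56 to 0.27) to 0.17 (Sec23a, -0.10 to 0.43) on the log2 scale.

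**Figure D2:**
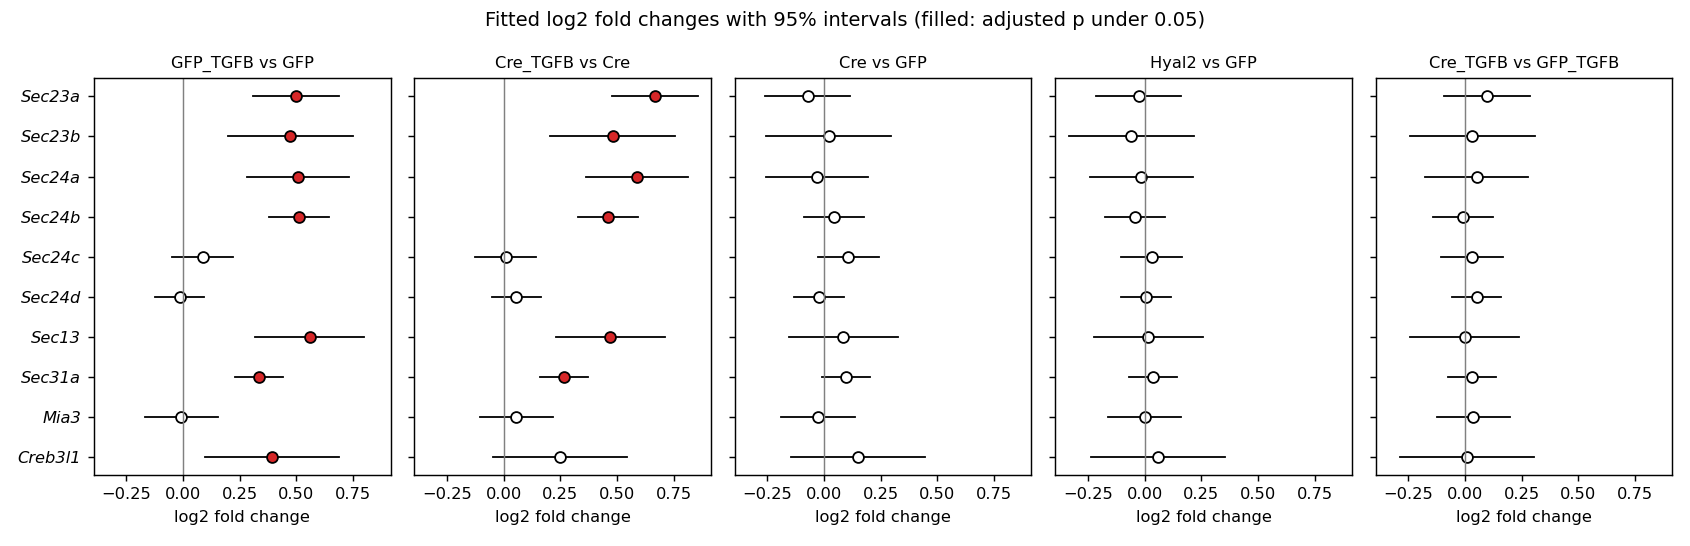
Fitted log2 fold changes (x axis) of the 10 genes (y axis) in 5 comparisons, with 95% intervals; filled points have an adjusted p under 0.05. In the TGFB comparisons 7 and 6 points are filled, and 0 are filled in the 3 comparisons of viruses.

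The makeup of the inner coat was then read within each library, from counts alone, so that no scaling factor entered. Sec24d held 50.6%, 49.2%, 50.9% and 51.1% of the summed Sec24 counts in GFP replicates 1 to 4 and 45.8%, 45.1%, 44.6% and 44.0% in GFP_TGFB. All GFP_TGFB cultures were lower, with a mean difference of -5.56 percentage points. In Cre it held 49.4%, 47.2%, 49.6% and 49.2%, and in Cre_TGFB 45.8%, 45.4%, 45.6% and 44.97%, a difference of -3.42 points that again left no overlap. Each difference had p = 0.0286 in an exact two-sided permutation test, the smallest that 4 against 4 libraries allow. The adjusted p was 0.0571 over the 4 ratio tests, above the threshold. The ratio tests exchanged libraries freely between the groups and did not keep the isolates paired. The shares are of counts and take no account of exon length; per kb the Sec24d share was 51.3 ± 0.95% in GFP and 45.9 ± 0.69% in GFP_TGFB (SD, n = 4).

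The shares of Sec24a and Sec24b differed in the other direction. Sec24a held 6.67 ± 0.89% of the Sec24 counts in GFP and 8.53 ± 0.64% in GFP_TGFB, and Sec24b 17.1 ± 0.72% and 21.97 ± 0.88%. Sec24c held 25.8 ± 1.94% and 24.6 ± 0.89%. The ranges of the groups overlapped for Sec24a and Sec24c and not for Sec24b. The log2 ratio of the summed Sec24a and Sec24b counts to those of Sec24c and Sec24d was -1.68 ± 0.10 in GFP and -1.19 ± 0.10 in GFP_TGFB, and -1.68 ± 0.08 in Cre and -1.23 ± 0.11 in Cre_TGFB. This split by subfamily was chosen after the values were seen and carries no test. The Sec23 genes kept no such pattern: the log2 ratio of Sec23a to Sec23b counts was 1.43, 1.30, 1.41 and 1.79 in GFP and 1.48, 1.36, 1.65 and 1.499 in GFP_TGFB. The groups overlapped, and the difference of 0.02 had an exact permutation p = 0.8286 (adjusted p = 0.8286). In the Cre cultures the ratio was 1.38 ± 0.12 and with TGFB 1.56 ± 0.21, a difference of 0.18 (exact permutation p = 0.229, adjusted p = 0.305).

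**Figure D3:**
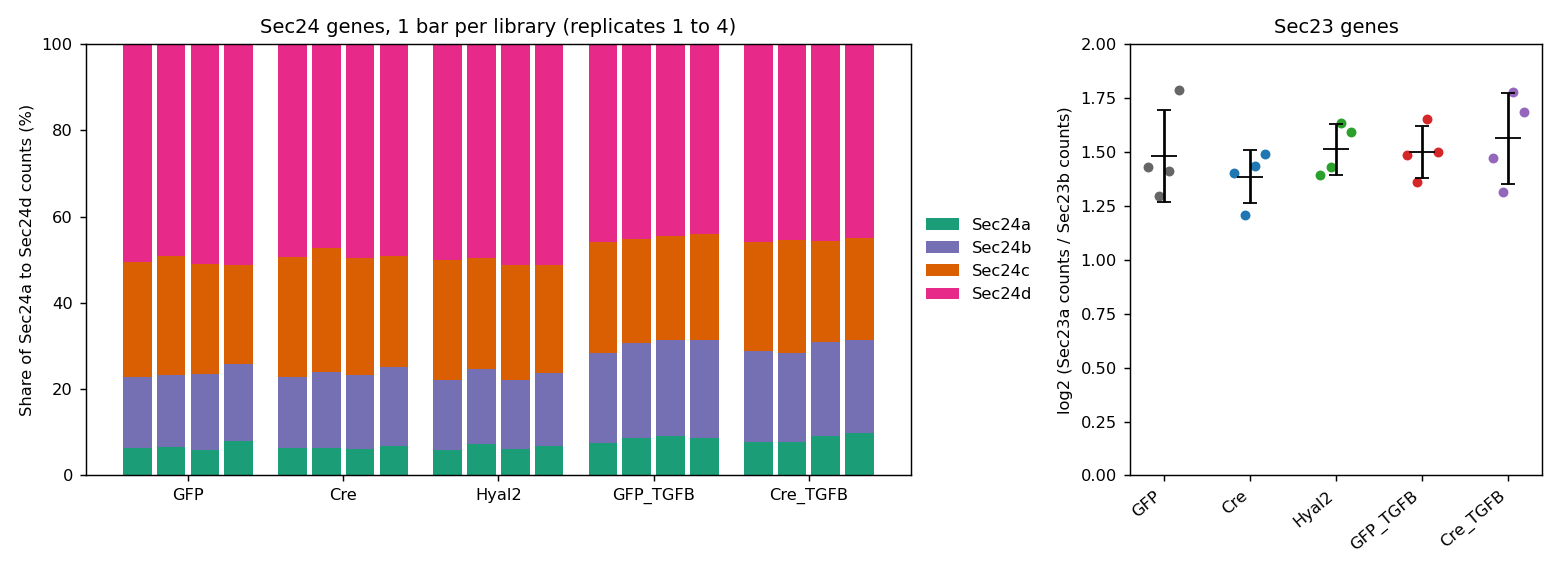
Left, share of the summed Sec24 counts (%) held by each Sec24 gene, 1 bar per library in replicate order; right, log2 ratio of Sec23a to Sec23b counts, with points for cultures and bars for the mean ± SD of 4. The Sec24d share is 44.0% to 45.8% in the 8 TGFB libraries and 47.2% to 51.3% in the other 12, while the Sec23 ratios overlap.

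The remaining comparisons asked whether removing or adding Hyal2 moved these genes. In Cre against GFP, 0 of the 10 genes were called by edgeR, DESeq2 or limma-voom. Of all genes, edgeR and limma-voom each called 0.0064% (1 gene, Hyal2), while DESeq2 called 0.237%. At an unadjusted p under 0.05, edgeR and limma-voom gave 0 of the 10, while edgeR with the replicate block and DESeq2 gave 1 each, beside 8.71% and 4.85% of all genes. The fitted log2 fold changes ranged from -0.07 (Sec23a) to 0.15 (Creb3l1). Sec31a lay at 453, 449, 445 and 497 CPM in Cre, above all 4 GFP cultures, which held for 2.01% of all genes; its log2 fold change was 0.10 (95% interval -0.01 to 0.20, adjusted p = 0.926). Creb3l1 was above its GFP partner in 4 of 4 isolates, by a mean of 0.15 ± 0.04 on the log2 scale (SD, n = 4), while the groups overlapped and the adjusted p was 0.931.

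In Hyal2 against GFP 0 of the 10 genes were called by any of the 3 tools, with 0.0064% of all genes called (Hyal2 itself), and the fitted values ranged from -0.06 (Sec23b) to 0.06 (Creb3l1). In Cre_TGFB against GFP_TGFB 0 of the 10 were called by any of the 3 tools, and the values ranged from -0.01 (Sec24b) to 0.10 (Sec23a). There edgeR and limma-voom each called 0.0064% of all genes (Hyal2) and DESeq2 0.0128%. At an unadjusted p under 0.05 all 3 tools gave 0 of the 10 in both comparisons. The shares of all genes were also small, 1.98% to 2.12% in the first and 1.16% to 1.43% in the second. The narrowest 95% intervals were those of Sec31a, -0.07 to 0.14 in the first and -0.08 to 0.13 in the second. The widest were those of Creb3l1, -0.23 to 0.36 and -0.29 to 0.30.

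Some of the genes stood apart by isolate in the cultures without TGFB. Replicates 1 and 2 were labelled female and 3 and 4 male, so these are 2 isolates a sex and are described without a test. Female and male libraries did not overlap for 4 of the 10 genes without TGFB, and for 16.1% of all genes. With TGFB they did not overlap for 3 of the 10 genes (Mia3, Sec23b and Sec24c), and for 23.6% of all genes. Without TGFB, the level of Creb3l1 was 119 to 152 CPM in 6 female libraries (median 136) and 173 to 201 CPM in 6 male ones (median 181). With TGFB it lay at 192 to 210 CPM in the 4 female and 184 to 216 in the 4 male libraries. The sexes thus stood apart without TGFB and overlapped with it. Mia3 was likewise lower in the female libraries without TGFB, at 186 to 216 CPM against 224 to 236, and with TGFB, at 202 to 214 against 217 to 243. Sec13 and Sec23b stood the other way without TGFB: Sec13 was at 178 to 207 CPM in female and 145 to 166 in male libraries, and Sec23b at 61.4 to 75.7 and 46.3 to 56.4. With TGFB Sec13 lay at 237 to 285 CPM in female and 236 to 251 in male libraries, which overlap. Sec23b remained higher in the female libraries with TGFB, at 88.2 to 95.5 against 77.3 to 83.1 CPM.

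The sex difference in the TGFB effect (male minus female, GFP cultures) was tested, and 0 of the 10 genes were called, where 1.38% of all genes were. The unadjusted p was under 0.05 for 2 of the 10, a share close to the 16.5% of all genes. For Creb3l1 the difference was -0.36 on the log2 scale (95% interval -0.70 to -0.02, adjusted p = 0.269), and by isolate the TGFB effect was 0.52 and 0.66 in the female and 0.15 and 0.30 in the male cultures. For Sec13 it was 0.31 (0.05 to 0.57, adjusted p = 0.223), with effects of 0.63 and 0.20 in the female and 0.66 and 0.79 in the male cultures. Replicate 2, with 0.20, thus stood apart from replicate 1 for Sec13. DESeq2, limma-voom and the fit with the replicate block also called 0 of the 10, beside 5.01%, 1.2% and 6.05% of all genes, and their smallest adjusted p-values among the 10 were 0.127, 0.220 and 0.0970.

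**Figure D4:**
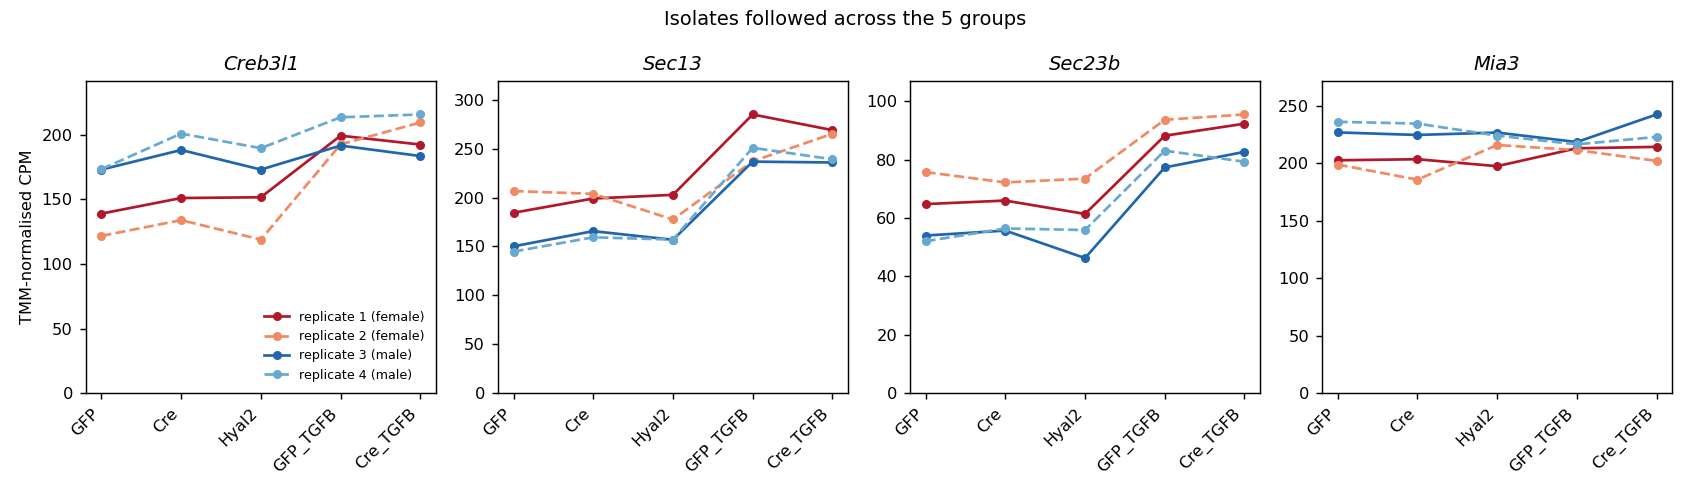
TMM-normalised CPM (y axis, from 0) of Creb3l1, Sec13, Sec23b and Mia3 in the 5 groups (x axis), with a line for each isolate (replicate number) and colour by labelled sex; the lines join separate cultures and show no time course. For Creb3l1 the female lines run at 119 to 152 CPM without TGFB and meet the male lines with it.

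A further 111 genes of ER export and collagen making were listed by function in 7 lists, and all were tested. These lists too were made with earlier results of these data known. In GFP_TGFB against GFP, 44 of them were called higher and 12 lower, where 26.6% of all genes were called higher and 28.6% lower. With library totals in place of TMM it was 29 higher and 20 lower, where 20.1% and 35.3% of all genes were. In Cre_TGFB against Cre it was 47 and 17, 64 in all, where 27.5% of all genes were called higher and 29% lower. Without replicate 3 it was 42 in all, where 21% of all genes were called higher and 24.2% lower. With library totals it was 33 and 19, where 22.3% and 33.6% of all genes were. In each of the 3 virus comparisons and in the interaction, 0 were called.

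Of 18 other genes of ER exit sites, 6 rose and 0 fell with TGFB under the GFP virus, with a median log2 fold change of 0.12. That count is 4 and 2 with library totals, and a count of 6 in 18 is close to the share of all genes called higher. Preb (Sec12), which loads Sar1 with GTP, rose from 56.0 to 72.1 CPM (log2 0.37). Mia2, which encodes the Mia3 partner cTAGE5, rose by 0.58 from 59.7 to 89.4 CPM, and Sec16b, a scaffold of exit sites, by 0.68 from 14.99 to 24.1 CPM. Among 22 cargo receptors, 9 rose and 5 fell (median 0.15), or 4 and 6 with library totals. Of all genes, 26.6% were called higher and 28.6% lower, or 20.1% and 35.3% with library totals. A count of 4 in 22 is close to that 20.1%. Lman1 (ERGIC-53), a lectin that carries glycoproteins, rose by 0.43, while Ergic3 fell by 0.53 and Tmed1, of the p24 family, fell by 0.54.

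Of 18 tethers and SNAREs that join the vesicles to the Golgi, 8 rose and 0 fell (median 0.18), or 5 and 1 with library totals. Those with the smallest p were the tether Uso1 (p115; log2 0.48), the SNARE Ykt6 (0.29) and Gorasp2 (GRASP55; 0.29). Of 13 genes of COPI, the coat of the return route, 6 rose and 0 fell (median 0.16), or 2 and 1 with library totals. Among them were Copz1 (0.38), the GTPase Arf1 (0.30) and Copb2 (0.24; with library totals 0.13, not called). The medians of these lists lay between the medians of all genes (-0.02) and of the 10 genes (0.43). Of all genes, 26.6% were called higher and 28.6% lower, or 20.1% and 35.3% with library totals. The COPI count of 2 in 13 with library totals is no higher than that 20.1%. The part of the leukocyte and endothelial markers in these counts was likewise not tested.

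Of 6 genes of the Creb3 family and the proteases that release them, 3 rose and 3 fell (2 and 3 with library totals). Of all genes, 26.6% were called higher and 28.6% lower. The relatives of Creb3l1 that fell, Creb3l3 and Creb3l4, were scarce, at 0.595 and 2.06 CPM in GFP. Creb3 and Creb3l2 rose, and of the proteases Mbtps2 rose and Mbtps1 fell. Creb3l2, whose product activates Sec23a during cartilage formation, rose from 219.3 ± 37 to 572 ± 13.9 CPM (SD, n = 4), a log2 fold change of 1.38 ± 0.12 (SE; adjusted p = 1.16e-08). In the Cre cultures it rose from 214 ± 25.8 to 582 ± 17.8 CPM (1.45, adjusted p = 6.53e-09). Creb3 rose by 0.74, from 82.7 to 138 CPM, and Creb3l4 fell by 0.94, from 2.06 to 1.07 CPM.

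Among 12 genes of procollagen chains and the collagen chaperone, 7 rose and 1 fell (median 0.51), or 7 and 2 with library totals. Col7a1, the anchoring-fibril collagen whose long trimer is a classic Mia3 cargo, rose from 12.8 ± 2.55 to 128 ± 10.1 CPM (log2 3.32 ± 0.14, adjusted p = 1.64e-12). Col5a2, a chain of the collagen that seeds fibrils, rose by 0.98 from 4307 to 8518 CPM. Col3a1, of the reticular collagen III, fell by 1.92 from 26630 to 7061 CPM. The cargo thus did not move 1 way. Of 22 ER chaperone and unfolded-protein-response genes, 5 rose and 3 fell (median 0.03), or 5 and 5 with library totals (median -0.08). A count of 5 in 22 is close to the share of all genes called higher, 26.6%, or 20.1% with library totals. The ones with the smallest p were Hyou1, an ER chaperone (log2 0.62), Ern1, which encodes the stress sensor IRE1 (0.57), and Atf6, another stress sensor (0.92).

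**Figure D5:**
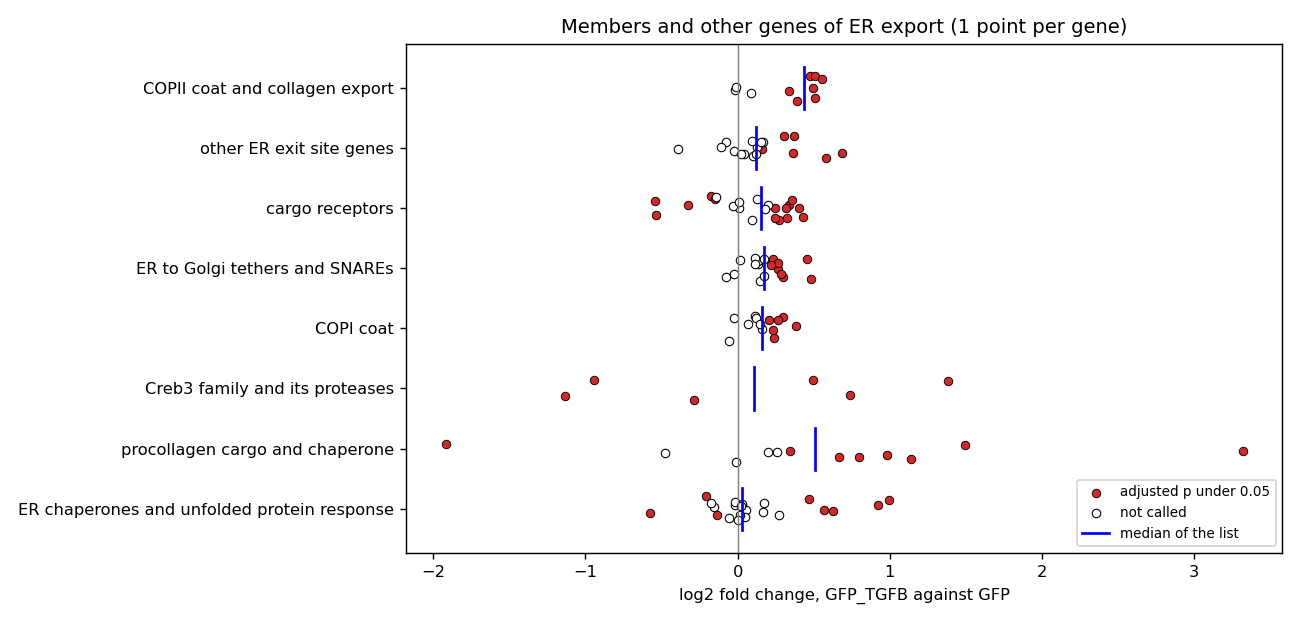
Log2 fold change in GFP_TGFB against GFP (x axis) of the 10 genes and of 7 lists of related genes (y axis); each point is 1 gene, filled where the adjusted p is under 0.05, the blue bar is the list's median and the vertical scatter within a list has no meaning. The 10 genes have 7 filled points between 0.33 and 0.56 and 3 open ones near 0, and the procollagen list runs from -1.92 to 3.32.

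The genes whose levels ran most like those of Creb3l1 over the 20 libraries, by Pearson's r of log2 CPM, were Col5a3 (0.92), Col1a1 (0.91), Baiap2 (0.91), Vegfc (0.90) and Cacna1g (0.90). Col5a3 and Col1a1 encode collagen chains; Col1a1 ranged from 8463 to 20938 CPM. For Sec24d they were Heatr5b (0.80), Erc1 (0.78), Tmppe (0.76), Klf12 (0.75) and Utrn (0.75). The 20 libraries share 4 isolates and 2 states of TGFB, so the points are not independent, and these values are a description.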

How the data were processed

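The submitters' processing notes name GRCm39 (mm39) as the build, and HTSeq 0.10.0 and FastQC 0.10.1 as tools. The authors deposited whole-number read counts for each Ensembl gene, with no normalisation. Aligner, annotation and strand setting were not given in the sources used here, and reads of overlapping or antisense genes may be shared. Of 55414 identifiers 52081 had a symbol in GENCODE M21 (build GRCm38), used for names and exon lengths only; promoters are RefSeq GRCm38.p6.

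All 20 libraries entered 1 edgeR 4.0.16 fit (R 4.3.3; TMM, robust quasi-likelihood F test, a mean per group, no block). filterByExpr (minimum count 10, minimum total 15) kept 15624 of 31062 genes with any count. The sex contrast used a mean per group and sex. SE is the absolute log2 fold change over the square root of F. Ratios were tested by exact permutation, without pairing by isolate. The script was tested on simulated counts. The named genes were all 10 genes, Hyal2 and the 3 of each list with the smallest p in GFP_TGFB against GFP. The 5 most like Creb3l1 and Sec24d were also named. So were Sec31b, Sar1a, Sar1b, Creb3l3, Mbtps1 and Mbtps2, as relatives or partners of the 10 genes. The 10 genes and the lists were chosen with earlier results of these data known.

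Alternatives were a replicate block, size factors of another kind (RLE), no filter, DESeq2 1.42.0, limma-voom (limma 3.58.1) and leaving out each isolate. Library totals and upper-quartile factors were added after seeing the data. Library names carry 1 of 4 isolate codes, 1 for each replicate number. Same-numbered libraries of different groups deviated together (r of 0.114 to 0.712 in 40 pairs), and pairs with different numbers reached up to 0.442. All 20 libraries correlated best with a library of their own number in another group, so the numbers were taken to pair the samples. Nothing says that an isolate is 1 animal, and p-values measure the spread between these cultures. No 2 replicates of a group were identical (chi-square per degree of freedom at least 8.14 in 30 pairs).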

Additional observations from a re-analysis of the deposited data

Results flagged for a closer look

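Of 60 groups of 4 libraries checked, 3 had a library far from the others. The rule flags about 1 in 20 independent groups by chance, but these groups share libraries and are not independent. All 3 were in replicate 4, and the Cre values of Sec24b and Sec31a came from the same library. The cause was not tested. Sec24b was at 101 CPM in Cre replicate 4, with the nearest culture at 87.1. Sec31a was at 497 CPM in Cre replicate 4 (nearest 453) and at 567 in Cre_TGFB replicate 4 (nearest 551).

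The effect of TGFB in the GFP cultures pointed up in both female isolates and down in both male isolates for 2 of the genes. For Sec24d the tested male minus female difference was -0.069 on the log2 scale (adjusted p = 0.794), and for Mia3 it was -0.17 (adjusted p = 0.433), so neither was called.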

How the results depend on the processing

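The 6 coat genes called in both TGFB comparisons were called under all 11 alternatives, 2 of which were added after seeing the data. The calls of Creb3l1 changed as given above, and the replicate block changed no other call of the 10 genes. Over all comparisons, 51 of 730 alternative fits of a gene gave the other sign; all were of values not called and at most 0.0856 in size. With library totals, the median of all genes in GFP_TGFB against GFP was -0.13 in place of -0.02. That scaling gave Sec24c a value of -0.018 there, and in Cre_TGFB against Cre it gave -0.064 for Sec24c, -0.015 for Sec24d and -0.017 for Mia3. Upper-quartile factors gave Sec24c -0.036 in that comparison, and the fit without a filter gave Sec24b 0.017 in Cre_TGFB against GFP_TGFB. The cause was not tested.

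With each replicate left out in turn, GFP_TGFB against GFP ranged from -0.042 to 0.0027 for Sec24d and from -0.053 to 0.039 for Mia3. Sec24c ranged from -0.021 to 0.046 in Cre_TGFB against Cre. In Cre_TGFB against GFP_TGFB, Sec24b ranged from -0.037 to 0.033 and Creb3l1 from -0.022 to 0.028. The difference in the log2 ratio of Sec23a to Sec23b under the GFP virus ranged from -0.0555 to 0.12. The genes called in the 7 other lists in Cre_TGFB against Cre ranged from 42 to 68, lowest without replicate 3. Fewer of all genes were called there too, 21% higher and 24.2% lower against 27.5% and 29% in the main fit.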
